A study of Mus musculus with 4 samples.

Results

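Malat1, Neat1, Meg3, H19 and Kcnq1ot1 are long noncoding RNAs that act largely from the nucleus or are expressed from one parental allele, and their reads were followed in mouse neural stem cells sequenced with Nanopore long reads. The 5 genes were chosen by their levels and isoform shares in these same libraries, so both are given as a description. No member was given a p-value of its own. The ratio and usage rules and a fit over all genes, given below, do not serve as tests of the 5 genes. Of the 5, 2 had entries that name the gene: Malat1 with 4 entries and H19 with 1, of 14949 genes and 46637 gene-naming entries in all. No entry used here carried the identifiers of Neat1, Meg3 or Kcnq1ot1. A further 208527 entries name only a chromosome position ("gene-less" entries), and 81 of these lie inside the annotated spans of the 5 genes.

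The cells were primary neural stem cells from the neocortex of floxed E12.5 mouse embryos, grown as neurospheres, and the labels call them neural cells. Total RNA was sequenced with a Nanopore cDNA-PCR kit. There were 4 libraries, 1 per genotype. The control, Tut1f/f, received lipid nanoparticles (LNP) without Cre mRNA. The other genotypes, Tut1f/f;Cre, then Trp53f/f;Cre, and then Tut1f/f;Trp53f/f;Cre, received LNP with mRNA of the Cre recombinase for 3 days, to remove the floxed exons. They are called the Cre libraries, and values for all libraries or for the Cre libraries keep this order, with Tut1f/f first where it is included. Tut1 encodes a terminal uridylyltransferase of U6 snRNA, and Trp53 encodes p53. Every comparison with Tut1f/f therefore also sets LNP with Cre mRNA against empty LNP, and these cannot be told apart. The 3 comparisons with Tut1f/f share that library. There were no replicates, so differences between libraries could not be set against replicate spread. Intervals cover counting error only, with reads taken as independent. Amplified reads that carry no molecular identifier may copy the same molecule, so the intervals may be too narrow. A change in the number of cells of a type and a change in RNA per cell cannot be told apart in these bulk libraries.

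As background, Malat1 is an abundant RNA of nuclear speckles whose 3′ end is not a poly(A) tail made after transcription: RNase P cuts it just after a genome-encoded A-rich tract, which folds into a stabilising triple helix, and releases a small tRNA-like RNA. Neat1 is the scaffold of paraspeckles and has a short polyadenylated and a long isoform that share a 5′ end. Meg3 and H19 are expressed from the maternal allele of the Dlk1 and Igf2 imprinted domains, and Kcnq1ot1 is a very long unspliced RNA made from the paternal allele, antisense to Kcnq1, that silences neighbouring genes in cis.

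The targeted genes were examined first. Levels are in CPM, reads per 1000000 gene-naming reads after TMM scaling, for gene-less entries too. The reads naming Tut1 numbered 37, 11, 14 and 27, or 9.22, 3.65, 4.10 and 8.999 CPM. They were low in the library labelled Trp53f/f;Cre, which should keep Tut1 whole. In the one labelled Tut1f/f;Trp53f/f;Cre, which should lack exon 2, the floxed exon, they were near the control. The order of these reads thus did not follow the labels. They were not restricted to exon 2, and transcripts without it may still be counted. They therefore check the labels only in part and cannot show them wrong. Xist, the noncoding RNA that coats the inactive X chromosome of female cells, had 0, 44, 49 and 0 reads, which pairs the libraries in a way that neither genotype nor Cre mRNA does. The sex of the source embryos is not given in the labels, and whether sources of different sex or exchanged labels lie behind the Tut1 and Xist reads was not tested. The reads naming Trp53 numbered 175, 67, 10 and 19, lowest in both libraries labelled Trp53f/f. Gene-naming reads numbered between 2863392 and 4244467 per library. The control library stood apart: gene-less entries held 17.2% of its reads, against 30.2%, 28.9% and 27.3% in the Cre libraries. One ribosomal RNA gene held 18.7% of its gene-naming reads, against 9.75%, 8.91% and 5.46%. These shares moved with every difference from Tut1f/f given here, and their part in those differences was not tested.

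The cells were checked against cell type markers. Of 12 neural stem cell markers, 9 had reads, summing to between 11733 and 13105 CPM in the 4 libraries, most of it from Fabp7, a radial glia fatty acid binding protein, at 9568 to 11193 CPM. Beneath that sum the markers differed. Hes1, a Notch target, had log2 ratios to Tut1f/f of 1.76, 1.65 and 1.59, all past the 2-fold rule defined with Malat1. Nes, the intermediate filament nestin, had 1.15, 1.09 and 0.50, and Vim, vimentin, had -0.72, -0.99 and -1.03. Pax6, a neural progenitor transcription factor, had 1.19, 0.91 and 0.91. Of 8 neuron markers, 5 to 7 had reads, with a sum between 78.7 and 94.0 CPM. Oligodendroglial and astrocyte markers summed to 430.5 CPM in Tut1f/f and to 658.5, 753.7 and 547.6 CPM in the Cre libraries. Olig2, an oligodendroglial transcription factor, held most of that sum, with 998, 1391, 1953 and 1073 reads. Aldh1l1, an astrocyte enzyme, went the other way, with 187, 16, 11 and 71 reads. The part of these marker differences in the results was not tested. Of 10 mesenchymal, meningeal and vascular markers, none had reads except 1 in Trp53f/f;Cre, at 0.293 CPM in all. Of 7 microglia markers, 1 had reads in each library, at 0.333 to 0.878 CPM.

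Malat1 lies on chromosome 19 (chr19:5795690-5802672, minus strand, GRCm38, GENCODE M21) and its main annotated transcript, Malat1-201, is a single exon of 6983 nt. No entry used here carried the name of Malat1-201. The 4 entries that name the gene belong to short spliced transcripts. The bases on both sides of their splice junctions, from GENCODE M21, are shown because these junctions are what separates the gene-named reads from each other, with the first 40 bases of exon 2 in capitals.

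Malat1-203: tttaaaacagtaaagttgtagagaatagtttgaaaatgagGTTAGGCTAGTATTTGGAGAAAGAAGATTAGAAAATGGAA
Malat1-202: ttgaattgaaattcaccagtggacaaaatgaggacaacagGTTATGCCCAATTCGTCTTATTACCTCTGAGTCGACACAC
Malat1-204: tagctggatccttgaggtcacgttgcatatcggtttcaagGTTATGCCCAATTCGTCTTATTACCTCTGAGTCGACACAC

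Malat1-203 is a transcript of the 5′ end of the gene, with exon 1 at chr19:5802238-5802671 and exon 2 at chr19:5801916-5801966. Malat1-202 (exon 1 at chr19:5797004-5797464) and Malat1-204 (exon 1 at chr19:5796389-5796952) splice to one acceptor near the 3′ end of the gene, so the capitals of these transcripts are alike. The stretch of Malat1-201 around its longest run of A, 12 bases at chr19:5795988-5795999, is shown because it marks the A-rich tract at the mature 3′ end, with the run in capitals.

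Malat1-201, A-rich stretch: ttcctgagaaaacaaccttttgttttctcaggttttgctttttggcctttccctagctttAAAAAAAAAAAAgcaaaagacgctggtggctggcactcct

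The run ends 298 nt before the annotated end of Malat1-201, and no other run of 8 or more A occurs in that transcript.

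Malat1 was higher in each Cre library than in Tut1f/f, whichever class of reads was counted. Reads naming the gene numbered 55 in the control and 315, 323 and 261 in the Cre libraries. These are 13.7 CPM (95% exact Poisson interval 10.3 to 17.8) in the control and 104.7 (93.4 to 116.9), 94.5 (84.5 to 105.4) and 86.99 (76.8 to 98.2) CPM in the Cre libraries. The control interval lay below the other intervals, which overlapped each other. The log2 ratio to Tut1f/f was 2.93 (95% exact interval 2.52 to 3.37), 2.79 (2.37 to 3.23) and 2.67 (2.24 to 3.11). Between Tut1f/f;Trp53f/f;Cre and Trp53f/f;Cre, which differ in the Tut1 label, it was -0.12 (-0.36 to 0.12).

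A gene was counted as past the ratio rule when its CPM ratio was at least 2-fold and the exact 95% interval left out no change. Malat1 was past the rule in all 3 comparisons with Tut1f/f. So were 26.0%, 27.6% and 20% of 9882 genes in the Cre libraries. A ratio higher than that of Malat1 was seen in 1.06%, 1.24% and 1.22% of these genes. Genes lowered by more than Malat1 was raised are not in that count. Among the Cre libraries, Malat1 was not past the rule in any pair, where the share of genes past it was 7.07% for Tut1f/f;Trp53f/f;Cre with Trp53f/f;Cre, 4.58% for Tut1f/f;Trp53f/f;Cre with Tut1f/f;Cre and 3.38% for Tut1f/f;Cre with Trp53f/f;Cre. In an additive edgeR quasi-likelihood fit with 1 degree of freedom for the spread, 0 of 9882 genes (0%) were called for Tut1 status at a Benjamini-Hochberg adjusted p under 0.05 and at least 2-fold, and 1 (0.0101%) for Trp53 status. At an unadjusted p under 0.05 the counts were 171 and 147, and DESeq2 called 0 and 1. Malat1 was not among the genes called. The fit has no term for Cre mRNA, so a difference alike in all 3 Cre libraries, the shape seen for Malat1, enters its spread. These counts therefore do not bear on such a difference.

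**Figure D1:**
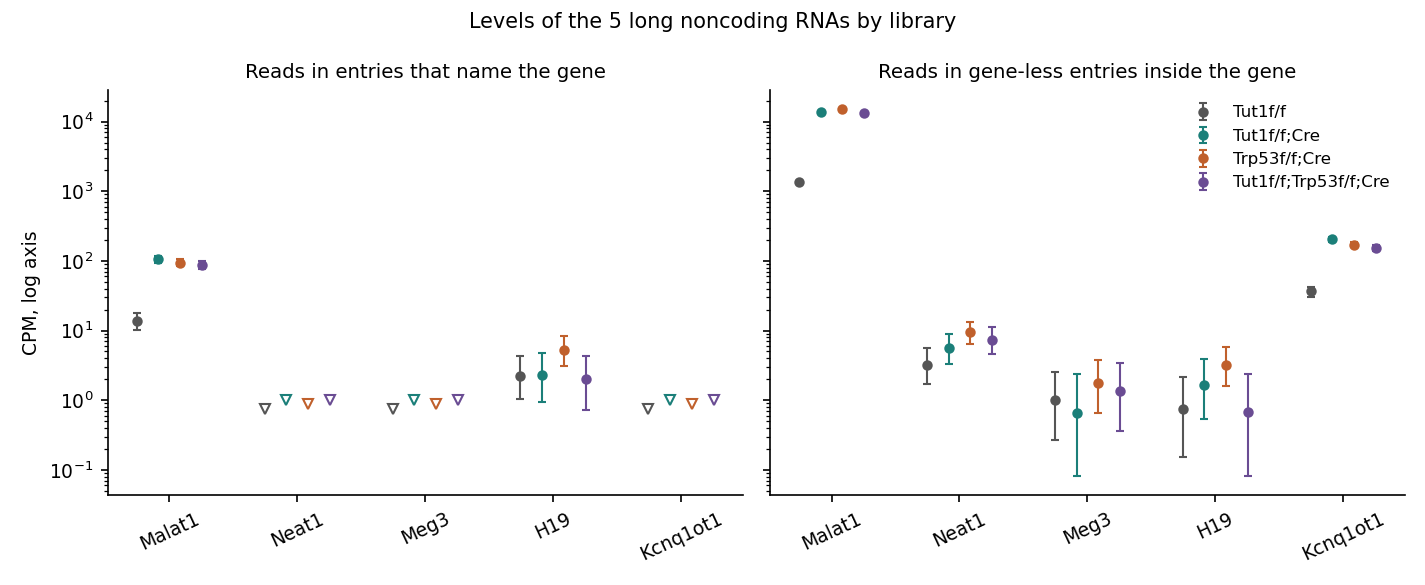
CPM (log axis) of the 5 genes in the 4 libraries, for entries that name the gene (left) and gene-less entries inside its annotated span (right). Points have exact Poisson 95% intervals, and open triangles mark a count of 0 at the level that 3 reads would give. The Malat1 points of the Cre libraries lie between 13269 and 15070 CPM on the right and between 86.99 and 104.7 CPM on the left.

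Isoforms among the gene-named Malat1 reads differed between the control and the Cre libraries. Malat1-203 had 7 reads in the control and 266, 273 and 239 in the Cre libraries. Its share of the gene-named reads was 12.7% (95% Wilson interval 6.30 to 24.0) in the control and 84.4% (80.03 to 88.0), 84.5% (80.2 to 88.1) and 91.6% (87.6 to 94.4) in the Cre libraries. The difference from Tut1f/f was 71.7 percentage points (Newcombe interval 59.6 to 79.1), 71.8 (59.7 to 79.1) and 78.8 (66.9 to 85.8).

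The variant of Malat1-202 had 35, 33, 34 and 18 reads, and Malat1-204 had 13, 15, 16 and 4. Their shares were 63.6% and 23.6% in the control and at most 10.5% and 4.95% in the Cre libraries. In CPM, however, the variant of Malat1-202 stood at 8.72, 10.96, 9.95 and 5.999, and for both transcripts every log2 ratio to Tut1f/f had an interval that includes 0. The smaller shares of the 3′ transcripts thus went with more Malat1-203 reads, and no difference of their own from Tut1f/f was detectable at this depth. Among the Cre libraries, Malat1-204 was lower in Tut1f/f;Trp53f/f;Cre on its 4 reads, with log2 ratios of -1.81 (-3.85 to -0.18) to Trp53f/f;Cre and -1.90 (-3.95 to -0.25) to Tut1f/f;Cre. A variant of Malat1-204 had 1 read in Tut1f/f;Cre and none elsewhere.

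**Figure D2:**
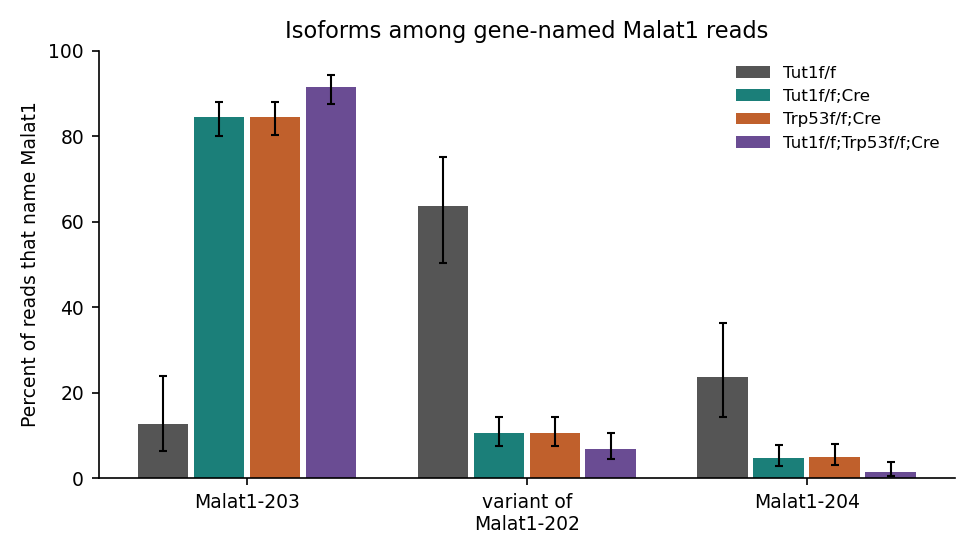
Share of the gene-named Malat1 reads in each isoform, in percent, for the 4 libraries, with Wilson 95% intervals as error bars. Malat1-203 holds 12.7% in Tut1f/f and 84.4% to 91.6% in the Cre libraries, on 55 reads in the control and 261 to 323 reads in the others.

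The 3 isoforms passed the usage rule (at least 10 percentage points, with a Newcombe 95% interval that leaves out 0) in each comparison with Tut1f/f. At 20 points, 2 isoforms passed in Tut1f/f;Cre and in Trp53f/f;Cre, where Malat1-204 differed by -18.9 and -18.7 points. With annotated transcripts alone as the denominator, which leaves out the variant of Malat1-202, Malat1-204 differed by -59.7, -59.5 and -63.4 points. Over all isoforms the rule was passed by 12.8%, 13.3% and 11.0%. None of the isoforms passed it in the pairs of Cre libraries, where the shares over all isoforms were 5.62%, 3.61% and 3.36% in the order of pairs given above. For Malat1-203 the difference between Tut1f/f;Trp53f/f;Cre and Trp53f/f;Cre was 7.05 points (1.71 to 12.2).

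Gene-named reads were a small part of the reads at the locus. Gene-less entries positioned inside the Malat1 span held 5528, 41147, 51488 and 39811 reads, between 99.0% and 99.4% of all reads at the locus. These were 0.108% of all reads of the control library and 0.967%, 1.07% and 1.01% of the Cre libraries. The log2 ratio to Tut1f/f was 3.31 (3.27 to 3.35), 3.45 (3.41 to 3.49) and 3.27 (3.23 to 3.31). Between Tut1f/f;Trp53f/f;Cre and Trp53f/f;Cre it was -0.18 (-0.20 to -0.16). With these reads in the denominator, Malat1-203 made up 0.125% of the locus in Tut1f/f and 0.642%, 0.527% and 0.596% in the Cre libraries, a difference under 1 percentage point, so the isoform difference concerned a small fraction of the Malat1 reads.

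Gene-less reads were more frequent in the Cre libraries at most genes. Over 9066 annotated gene spans with at least 40 gene-less reads in all, some of which overlap and share entries, the medians of the log2 ratio to Tut1f/f were 1.39, 1.30 and 1.19. The share of spans past the ratio rule was 65.1%, 62.5% and 56.8%, so passing it sets no gene apart. Malat1 lay 1.92, 2.16 and 2.08 log2 units above those medians, and 2.01%, 1.20% and 1.70% of the spans had a higher ratio. In the 3 pairs of Cre libraries, 3.68%, 3.81% and 3.34% of spans passed the rule, and Malat1, Kcnq1ot1 and Neat1 passed it in none. The Malat1 ratio between Tut1f/f;Trp53f/f;Cre and Trp53f/f;Cre, -0.18, stood beside a median of -0.13 over all spans.

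**Figure D3:**
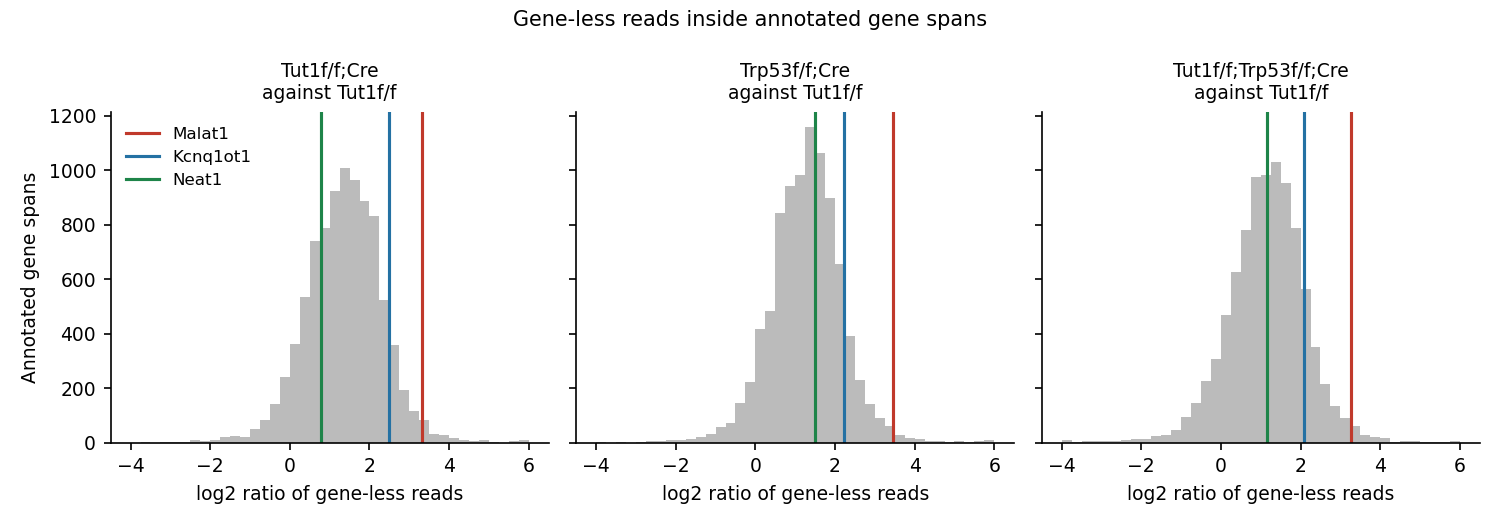
Number of annotated gene spans by log2 ratio of gene-less reads to Tut1f/f (pseudocount of 0.5 reads, values beyond the axis placed in the end bins), for the 3 Cre libraries. The lines mark Malat1 at 3.27 to 3.45, Kcnq1ot1 at 2.08 to 2.49 and Neat1 near the centre, with medians of all spans at 1.19 to 1.39.

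The reads at Malat1 were concentrated in 1 entry, named for position 5800000 of chromosome 19, which lies 2.67 kb from the annotated 5′ end. It held 4891, 39902, 50040 and 39108 reads, or 88.5%, 97.0%, 97.2% and 98.2% of the gene-less reads inside the span, so the concentration was lowest in the control. Among the 208527 gene-less entries it ranked 11 in Tut1f/f and 1 in each Cre library, and among all 255164 entries it ranked 119, 3, 4 and 3. Positions are whole multiples of 1000 bases, and neither the end of the isoform that a position marks nor the strand is stated in the sources used here.

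Entries toward the 5′ end of Malat1 differed most from the control. The entry 0.672 kb from the 5′ end had 31, 297, 259 and 198 reads, log2 ratios of 3.68 (3.14 to 4.26), 3.30 (2.75 to 3.88) and 3.10 (2.54 to 3.69). The entry at 3.67 kb had 28, 132, 133 and 89 reads, with log2 ratios of 2.65, 2.48 and 2.09. The largest of the 4 entries at 4.67 kb had 413, 546, 677 and 255 reads and was not past the rule in any comparison with Tut1f/f, with log2 ratios of 0.82, 0.95 and -0.28. Another entry at 4.67 kb, with 55, 111, 153 and 81 reads, had log2 ratios of 1.43, 1.71 and 0.98, and the entry at 5.67 kb, with 10, 19, 32 and 11 reads, had 1.34, 1.91 and 0.56. Both were past the rule in Tut1f/f;Cre and Trp53f/f;Cre, so the ratios did not decline evenly along the gene.

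At the 3′ end the entries differed from each other. The larger of the 2 entries at position 5795000, which falls just beyond the annotated end but whose kilobase holds the A run shown above, had 592, 423, 533 and 312 reads. Its log2 ratio to Tut1f/f was -0.07 (-0.25 to 0.11), 0.08 (-0.09 to 0.25) and -0.50 (-0.71 to -0.30). The entry at 6.67 kb, the last inside the span, had 22, 57, 85 and 31 reads, with log2 ratios of 1.79, 2.18 and 0.91, the first and second past the rule. Without the entry at 5800000, the other gene-less entries inside the span had log2 ratios of 1.38 (1.24 to 1.52), 1.42 (1.28 to 1.55) and 0.56 (0.41 to 0.72), near or below the medians over all spans. The excess of the summed Malat1 reads over those medians therefore rested on the entry at 5800000. The smaller entries at 0.672 and 3.67 kb also lay above the medians.

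**Figure D4:**
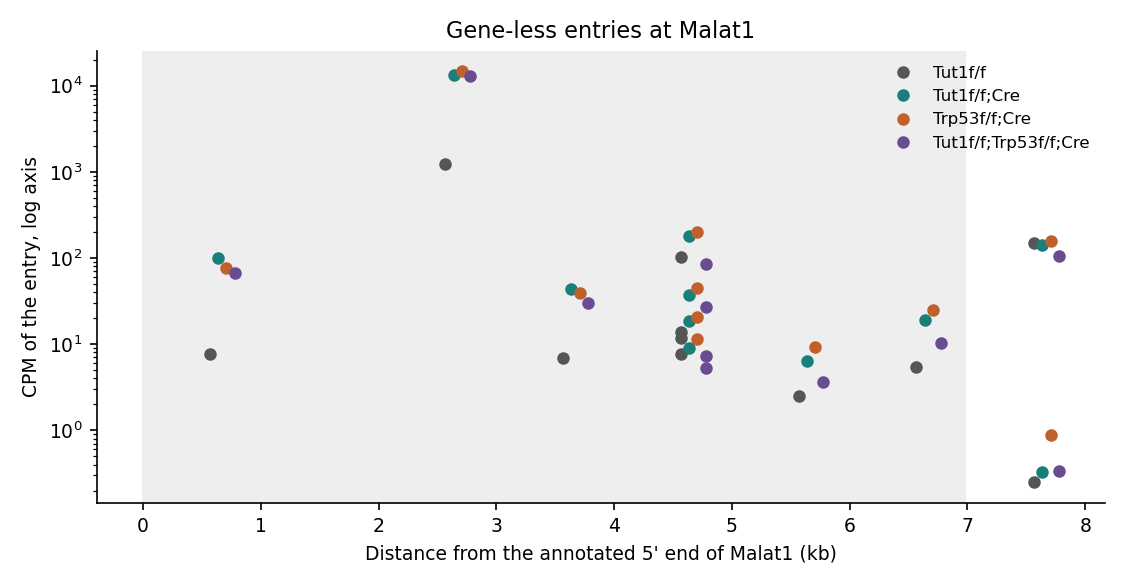
CPM (log axis) of each gene-less entry at Malat1 against the distance of its position from the annotated 5′ end in kb, with points of the 4 libraries set slightly apart and the annotated span shaded. The entry at 2.67 kb stands at 1218 CPM in Tut1f/f and 13035 to 14646 CPM in the Cre libraries, while the larger entry at 7.67 kb stands at 147.5 CPM in Tut1f/f and 103.99 to 156.0 CPM in the others.

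Between the libraries labelled Trp53f/f, the Malat1 entries differed by place. All 9 entries inside the span were lower in Tut1f/f;Trp53f/f;Cre than in Trp53f/f;Cre, and 5 were past the ratio rule, at positions between 5796000 and 5798000. Their log2 ratios ranged from -1.48 to -1.10. Over all gene spans the median for this pair was -0.13, and 3.68% passed the rule. The share over all gene-less entries was not computed, so whether this count is unusual was not tested. The entry at 5800000 had a log2 ratio of -0.17 (-0.19 to -0.15) in the same pair. Since the Tut1 reads of both libraries did not follow their labels, no direction is drawn for Tut1 from this pair.

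Kcnq1ot1 (chr7:143203458-143296549, minus strand, a single annotated exon of 93092 nt) was the second most abundant. Its span held 61 gene-less entries with 146, 616, 584 and 462 reads. These are 36.4 CPM (30.7 to 42.8), 204.7 (188.8 to 221.5), 170.9 (157.3 to 185.4) and 153.98 (140.3 to 168.7), so the control was lowest and its interval met no other. The log2 ratio to Tut1f/f was 2.49 (2.23 to 2.76), 2.23 (1.97 to 2.50) and 2.08 (1.81 to 2.36). This was 1.10, 0.93 and 0.89 above the medians over all spans, and 9.87%, 11.5% and 14.3% of spans had a higher ratio. Between Tut1f/f;Trp53f/f;Cre and Trp53f/f;Cre it was -0.15 (-0.33 to 0.03).

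The Kcnq1ot1 reads were spread along the RNA. The entry with the most reads held 6.31% of them, and of 34 entries with at least 20 reads in all, each had a higher CPM in every Cre library than in Tut1f/f. The 20-read cut is on the sum over the libraries, so it can be passed through reads of the Cre libraries alone, which favours this outcome. Of these 34, 29, 22 and 21 were past the ratio rule, and none of the 61 entries was past it in the lower direction. Over all gene spans 65.1%, 62.5% and 56.8% passed it, so these counts do not set Kcnq1ot1 apart. The share over all gene-less entries was not computed. In 19 windows of 5 kb, 15 had reads in every library. The share of reads within the first 45 kb from the 5′ end was 39.0%, 37.5%, 38.9% and 39.0%. Single windows differed more: from 15 to 20 kb there were 11, 92, 94 and 85 reads, while from 35 to 40 kb there were 8, 8, 12 and 10.

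Kcnq1ot1 lies inside Kcnq1, a potassium channel gene on the other strand (chr7:143106362-143427042), and without strand an intronic Kcnq1 read would look like a Kcnq1ot1 read. No entry used here carried the identifier of Kcnq1. The parts of Kcnq1 outside the Kcnq1ot1 span, 97.1 kb on one side and 130.5 kb on the other, held 0 entries and 1 entry with 1 read, against 61 entries in the 93.1 kb of Kcnq1ot1.

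**Figure D5:**
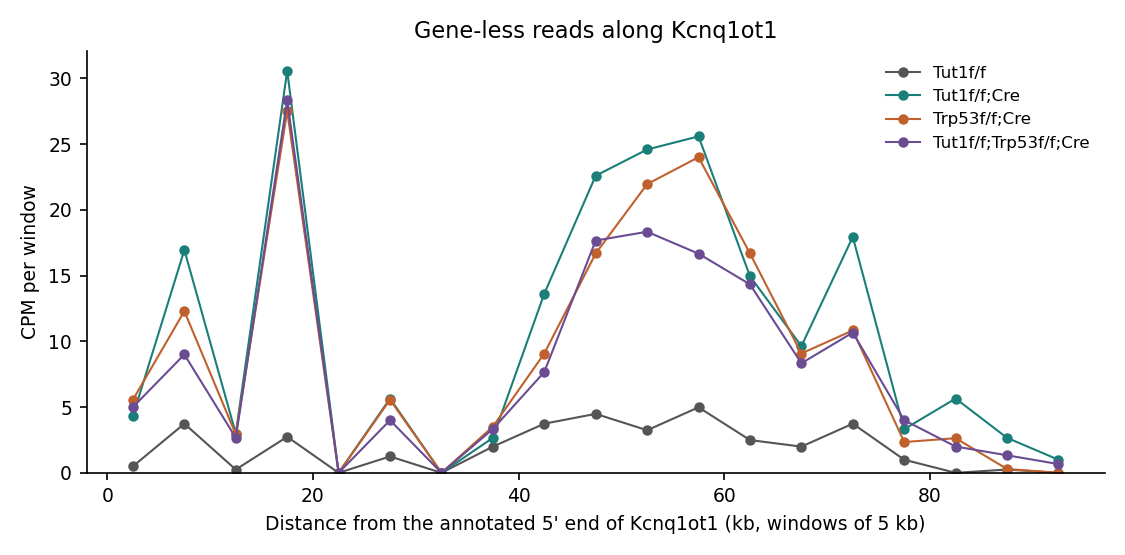
CPM of gene-less reads in windows of 5 kb along Kcnq1ot1 against the distance from its annotated 5′ end in kb, 1 line per library. The window from 15 to 20 kb, the highest in each Cre library but not in Tut1f/f, stands at 2.74 CPM in Tut1f/f and at 27.5 to 30.6 CPM in the Cre libraries.

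Neat1 (chr19:5824708-5845478, minus strand) had few reads. Its 5 gene-less entries held 13, 17, 32 and 22 reads, or 3.24 CPM (1.72 to 5.54), 5.65 (3.29 to 9.04), 9.37 (6.41 to 13.2) and 7.33 (4.60 to 11.1). The log2 ratio to Tut1f/f was 0.80 (-0.33 to 1.97), 1.53 (0.56 to 2.59) and 1.18 (0.13 to 2.29). The ratios lay 0.60 below, 0.20 above and 0.03 below the medians over all spans, and the ratios of Trp53f/f;Cre and the double genotype were past the rule, as was a majority of all spans. Scaled by the gene-less reads of each library, the log2 ratios were -0.16, 0.63 and 0.47, and Neat1 was past the rule in none of the 3 comparisons. The entries differed: at 13.5 kb from the 5′ end there were 1, 6, 14 and 12 reads, and at 3.48 kb there were 11, 5, 7 and 4.

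H19 (chr7:142575529-142578143, minus strand) was scarce in all libraries, although it is abundant in many embryonic tissues. Its single entry, a variant of H19-202, had 9, 7, 18 and 6 reads. These are 2.24 CPM (1.03 to 4.26), 2.33 (0.94 to 4.79), 5.27 (3.12 to 8.33) and 1.9998 (0.73 to 4.35). Trp53f/f;Cre was highest. By the ratio rule it was past both Tut1f/f and Tut1f/f;Trp53f/f;Cre, each with a bound next to 0, but the intervals of the levels overlapped, and H19 did not pass the filter on low counts. The 2 gene-less entries inside H19 had 3, 5, 11 and 2 reads, again highest in Trp53f/f;Cre. With both kinds of reads together, the log2 ratio of Tut1f/f;Trp53f/f;Cre to Trp53f/f;Cre was -1.67 (-3.01 to -0.51) on 8 and 29 reads. Igf2, the gene that shares its imprinted domain, had no entry used here.

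Meg3 (chr12:109541001-109571726, plus strand), often used as a marker of neurons, had 0 reads naming it. This allows up to 0.747 CPM of gene-named reads in Tut1f/f and up to 0.997, 0.878 and 0.9999 CPM in the Cre libraries, and does not limit gene-less reads. Its 4 gene-less entries held 4, 2, 6 and 4 reads, or 0.996, 0.664, 1.76 and 1.33 CPM. No difference was detectable at this depth.

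In order of total reads at the locus, Malat1 came first in every library, Kcnq1ot1 second, while Neat1, H19 and Meg3 stood at 9.37 CPM or less, and the intervals of Neat1 and H19 overlapped in each library. Malat1 exceeded Kcnq1ot1 in every library with intervals far apart. These are reads per gene, not per length.

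The genes whose gene-named profile over the 4 libraries was nearest that of Malat1, by the root mean square difference of centred log2 CPM among 6689 genes at 10 CPM or more on average, were Ago2 (0.09), Ftx (0.10) and AC132307.1 (0.11). Ago2, a small RNA-guided RNA slicer, had 10, 63, 59 and 56 reads. Ftx, a long noncoding RNA of the X inactivation centre, had 8, 43, 52 and 42. For H19 they included Stc1 (0.06) and Vegfa (0.16). Stc1, a secreted glycoprotein, had 50, 35, 90 and 31 reads and Vegfa, the vascular endothelial growth factor, 49, 47, 86 and 34. With 4 libraries, such likeness is a description only.

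The proteins and neighbours of these RNAs were read from lists, given as counts past the ratio rule beside the shares over all genes above, where the median log2 ratio of all 9882 genes was 0.02, 0.03 and -0.02 in the Cre libraries. Of 14 nuclear speckle proteins, 3, 5 and 3 were past the rule as higher and none as lower, with medians of 0.37, 0.54 and 0.59. Son, a core speckle protein, had 715, 3500, 2923 and 3120 reads, log2 ratios of 2.71, 2.26 and 2.55. Srrm1, a splicing coactivator of speckles, had log2 ratios of 1.57, 1.54 and 1.59. Acin1, an RNA-binding protein of splicing complexes, had 1.16, 1.26 and 1.02.

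Of 18 genes past the count filter of paraspeckle proteins and Neat1 3′ end choice, 1, 2 and 1 were higher and 4, 2 and 3 lower. Sfpq, a paraspeckle protein, had 162, 330, 440 and 292 reads, with log2 ratios of 1.44, 1.67 and 1.27. Hnrnpk, which favours the long Neat1 isoform, had 2114, 491, 426 and 665 reads, with log2 ratios of -1.69, -2.08 and -1.25. Cpsf7 and Nudt21, subunits of the cleavage factor that acts in poly(A) site choice, had 86, 12, 11 and 18 reads and 1007, 351, 463 and 459 reads, the second past the rule only in Tut1f/f;Cre. Rbm14, a paraspeckle protein, had 279, 103, 125 and 84 reads and was past the rule as lower in Tut1f/f;Cre and the double genotype. Sfswap, a splicing regulator, had 113, 149, 193 and 133 reads and was past it as higher in Trp53f/f;Cre. Of 13 genes of Malat1 3′ end processing and triple helix binding, 1 was higher and 2 lower in each Cre library. Elac2, the tRNase Z that trims the tRNA-like product, had 64, 17, 20 and 17 reads, and its 3 log2 ratios were past the rule. Pop1, a protein subunit of RNase P, had 15, 33, 33 and 29 reads, past the rule as higher in each Cre library. Of other RNase P subunits, Pop5 had 237, 63, 104 and 72 reads, past it as lower in Tut1f/f;Cre and the double genotype. Rpp14 had 144, 68, 53 and 117, past it as lower in Trp53f/f;Cre. Mettl16, which binds the Malat1 triple helix, had 96, 66, 48 and 89 reads, and its log2 ratio of Tut1f/f;Trp53f/f;Cre to Trp53f/f;Cre was 1.08 (0.56 to 1.62).

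Among the neighbours of Malat1 and Neat1, 8 passed the filter: 1 was higher and 2 lower in each Cre library. Frmd8 had 77, 6, 5 and 9 reads, log2 ratios of -3.27, -3.71 and -2.68, while Ltbp3, a latent TGF-beta binding protein, had 16, 33, 55 and 29 reads, log2 ratios of 1.46, 2.01 and 1.28. Dpf2, a chromatin remodelling subunit, had 231, 65, 47 and 124 reads, with log2 ratios of -1.41, -2.06 and -0.48, and Map3k11, a kinase, had 46, 20, 36 and 13, with -0.79, -0.12 and -1.40. In the Kcnq1ot1 domain, 5 genes passed the filter, of which 1, 1 and 0 were higher and 2, 3 and 2 lower. Cdkn1c, the cyclin-dependent kinase inhibitor silenced by Kcnq1ot1 on the paternal allele, had 13, 22, 27 and 17 reads, with log2 ratios of 1.17 (0.12 to 2.29), 1.29 (0.28 to 2.36) and 0.81 (-0.32 to 1.97). Nap1l4, a histone chaperone gene, had 748, 155, 128 and 166 reads, log2 ratios of -1.86, -2.31 and -1.75. Tssc4 had 181, 58, 65 and 50 reads, with log2 ratios of -1.23, -1.24 and -1.44, and Cd81, a tetraspanin, had 2897, 1237, 955 and 1095, with -0.81, -1.37 and -0.98. In the Dlk1 domain 2 of 9 genes had entries, of which Wars, a tRNA synthetase gene beside the imprinted cluster, had 292, 52, 53 and 104 reads. In the Igf2 domain, Mrpl23 alone of 9 genes had entries, with log2 ratios of 0.61 to 0.79.

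Of 21 imprinted genes elsewhere, 3, 5 and 2 were higher and 4, 3 and 4 lower. Mest, a paternally expressed gene, had 4845, 110, 147 and 240 reads, the largest difference in the list, with log2 ratios of -5.05, -4.81 and -3.92. Peg3, a paternally expressed zinc finger gene, had 42, 73, 98 and 56 reads, log2 ratios of 1.21, 1.45 and 0.84. Ppp1r9a, a neurabin gene, had 89, 204, 206 and 204 reads and Blcap 106, 32, 19 and 29, both past the rule in each Cre library. Nap1l5 had 212, 84, 127 and 61 reads, past it as lower in the double genotype, and Igf2r, the receptor that clears IGF2, had 67, 73, 119 and 66, past it as higher in Trp53f/f;Cre. Of 13 genes of imprint and DNA methylation machinery, 5, 4 and 4 were higher and 2, 2 and 1 lower. Tet1, a 5-methylcytosine dioxygenase, had 45, 201, 256 and 169 reads, and Uhrf1, which brings DNA methyltransferase to replicated DNA, had 220, 21, 33 and 66. Smchd1, a chromatin protein of the inactive X and imprinted clusters, had 44, 124, 153 and 99 reads, past the rule as higher in each Cre library. Ctcf, the insulator protein, had 68, 125, 166 and 87, past it as higher in Tut1f/f;Cre and Trp53f/f;Cre. Zfp445, a zinc finger protein that protects imprints, had 53, 16, 15 and 25, past it as lower in the same libraries. Tet3, another dioxygenase, had 26, 30, 41 and 55, past it as higher in the double genotype. Of 14 other long noncoding RNAs, 5, 5 and 2 were higher and none lower against Tut1f/f. Dleu2 had 67, 130, 156 and 115 reads and Ftx, given above, was likewise past the rule in each Cre library. Jpx, an activator of Xist, had 17, 36, 33 and 19 reads and Sox2ot, which overlaps Sox2, had 41, 67, 73 and 50, both past it in Tut1f/f;Cre and Trp53f/f;Cre. Xist, given with the targeted genes, is one of these, and was past the rule in Tut1f/f;Cre and Trp53f/f;Cre but without a read in the double genotype.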

How the data were processed

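The authors deposited 1 table of whole-number read counts per isoform entry, not normalized, with a column per library. Mouse build mm10 is named per the labels. The study's methods name minimap2, an Ensembl transcriptome and FLAIR for long reads of dissected palliums. Whether this table was made likewise, and how strand was handled, is not given in the sources used here. Counts were summed per gene identifier, and GENCODE M21 supplied symbols and positions. Genes, lists and thresholds were chosen with earlier results of these data known.

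Gene counts were fitted in R 4.3.3 with edgeR 4.0.16 (TMM, default expression filter, additive model of Tut1 and Trp53 status), with DESeq2 1.42.0 as the alternative. The rules for ratios and usage were computed in Python 3.11.15 with numpy 2.4.6, pandas 2.3.3 and scipy 1.17.1, figures with matplotlib 3.10.9, and all were tested on simulated data. A gene-less entry counted for a gene when its named position lay inside the annotated span. Its reads, between 17.2% and 30.2% per library, stayed out of library sizes and the fit. The 40-read minimum for gene spans, the 5-kb windows and the scaling by gene-less reads were chosen after seeing the data. Beyond the members and targets, list genes were named when past the ratio rule at 10 CPM or more in a library, at most 6 per list. Cdkn1c, Mrpl23 and Fabp7, outside that rule, were named after their values were seen. Some genes that the rule names are not reported here.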

Additional observations from a re-analysis of the deposited data

Results flagged for a closer look

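The gene-less reads of Malat1 differed in opposite directions between the libraries that differ in the Tut1 label. The log2 ratio was 3.31 for Tut1f/f;Cre against Tut1f/f and -0.18 for Tut1f/f;Trp53f/f;Cre against Trp53f/f;Cre. The difference between these ratios was not tested, since each rests on 1 library per side. The Tut1 reads of the second pair did not follow its labels, so no direction is drawn for Tut1. With those labels exchanged, the second ratio would have the sign of the first. The first pair also differs in Cre mRNA, which the second does not. With the gene-less reads of each library as the denominator, the second ratio was 0.01, so its sign depends on the scaling.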

How the results depend on the processing

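Genes called for Tut1 status numbered 0 under every alternative, and those for Trp53 status 1, or 2 with no filter. The number of members past the ratio rule by gene-named reads, 1 against Tut1f/f and 0 among the Cre libraries, changed where gene-less reads inside the span were added: to 2, 4 and 3 in the Cre libraries (Tut1f/f;Cre first, Trp53f/f;Cre next), and to 1 both for Tut1f/f;Trp53f/f;Cre and for Tut1f/f;Cre against Trp53f/f;Cre. With no expression filter H19 entered, giving 2 for Trp53f/f;Cre against Tut1f/f and 1 for Tut1f/f;Trp53f/f;Cre against Trp53f/f;Cre. The log2 ratio of Malat1 to Tut1f/f was 4.23, 4.09 and 4.02 with annotated transcripts only, and 3.45 in Trp53f/f;Cre and 3.26 in Tut1f/f;Trp53f/f;Cre with gene-less reads added. With gene-less reads in the denominator, 0 Malat1 isoforms passed the usage rule in the 3 comparisons with Tut1f/f. A 20-point rule left 2 isoforms, without Malat1-204, in Tut1f/f;Cre and in Trp53f/f;Cre. Scaling by gene-less reads, chosen after seeing the data, gave Malat1 gene-less log2 ratios of 2.35, 2.55 and 2.56 to Tut1f/f, Kcnq1ot1 1.53, 1.33 and 1.38, and Neat1 -0.16, 0.63 and 0.47, which ends both Neat1 calls. No called ratio or usage difference changed sign under the alternatives run. No paired analysis was possible because the labels give each group 1 library.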
